A study of Mus musculus with 66 samples.

Results

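Glutathione S-transferases are the enzymes that join the tripeptide glutathione to reactive, fat-soluble compounds, which makes these compounds soluble and ready for export. Cytosolic transferases fall into classes named by Greek letters, of which alpha, mu, pi, theta and omega are met here, and a separate family of membrane enzymes, the microsomal transferases, shares the reaction but not the fold. Many of their genes are known targets of NRF2, a transcription factor that is released from its inhibitor KEAP1 under oxidative or electrophile stress and binds antioxidant response elements. The genes described here are 10 of the 22489 in the table, namely Gsta3 and Gsta4 (alpha), Gstm1 and Gstm2 (mu), Gstp1 (pi), Gstt1 (theta), Gsto1 (omega), and Mgst1, Mgst2 and Mgst3 (microsomal). They were selected on these data, with the difference between 2 types of cell line in view, so that difference is described below without a test. The change during muscle differentiation was not itself used to choose them and was tested. Because it uses the same libraries, the choice can still bear on its p-values, and how far was not tested.

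mRNA-Seq was made from C2C12, a mouse myoblast line that fuses into myotubes when serum is withdrawn. Besides C2C12 cells without a transgene (WT), 9 lines each expressed 1 histone H3 variant fused to GFP from an integrated vector, under a doxycycline-inducible promoter and after sorting for GFP. Lines expressing H3.1, H3.2 and H3mmT (titled H3t in the sample names and matched to it as the only name left) are called H3.1/H3.2-type, and the 6 lines with H3.3 or with H3mm7, H3mm11, H3mm12, H3mm13 or H3mm16 are called H3.3-type. Each line gave 1 library in growth medium with 20% fetal bovine serum and 1 library 48 h after confluent cells were moved to 2% horse serum (differentiated). A line stands for its variant without a second line or library, so the effect of a variant and that of the line that carries it cannot be told apart, and the spread below is between lines.

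Values are FPKM, read fragments scaled by exon length and by the mapped total of the library, which allow levels to be compared between genes, and log2 differences are on the log2(FPKM + 1) scale. The read number of each library is unknown, so no counting error is given. Of 5 myoblast markers, 4 were above 1 FPKM in at least some libraries of each group, while Pax7 stayed below 1 FPKM throughout. Summed myotube markers went from 5.93–179 FPKM in growth to 3976–19184 FPKM in differentiated GFP-H3 lines, and summed markers of dividing cells went from 507–694 to 4.10–85.0 FPKM. All 5 hepatocyte and 4 adipocyte markers, which would mark cells rich in several of these transferases, were below 1 FPKM in every library. Summed macrophage, endothelial and epithelial markers reached at most 4.52, 7.63 and 3.49 FPKM. Because the libraries come from bulk RNA, fewer cells of a kind and less RNA per cell cannot be told apart.

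All 10 genes were protein-coding genes of the mm9 mouse genome and passed the filter of a mean of at least 1 FPKM over the 18 GFP-H3 libraries, as did 10931 genes in all. The mu-class genes lay close together on the minus strand of chromosome 3, Gstm2 at chr3:107784620-107789371 and Gstm1 at chr3:107815173-107820891. Within 100 kb, Gstm1 had 5 and Gstm2 had 6 mu-class neighbours, each count including the other gene of the pair. Mgst2 was on the same chromosome at chr3:51464282-51486597. Both genes of chromosome 19 had a neighbour of their own class nearby, Gstp2 for Gstp1 (chr19:4035411-4037921) and Gsto2 for Gsto1 (chr19:47929460-47939280). Gsta3 (chr1:21230670-21255442) and Mgst3 (chr1:169302097-169323972) shared chromosome 1. The others were Mgst1 at chr6:138088837-138105276, Gsta4 at chr9:78039773-78057155 and Gstt1 at chr10:75246558-75261329.

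Near-identical copies limit 3 of the values. Of the 31-base words in the Gstp1 transcripts, 73.0% also occurred in Gstp2, so reads of the pair can be exchanged, and Gstp2 itself was listed at 0.414 to 1.33 FPKM in the GFP-H3 lines. For Gstm1, 22.0% of the words occurred in other genes, and for Gstm2 13.5%. The coding sequences of Gstm1 and Gstm2 were 86.0% identical, against 68.7% for Gsta3 and Gsta4. The shared share was below 1% in each of the other 7 genes. Gsto1 lies within the span of Wdr96 on the opposite strand (chr19:47812051-47993777), and whether reads were counted by strand is not given in the sources used here.

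Gsta4, which acts on 4-hydroxynonenal from oxidised lipids, and Gsto1, an omega-class enzyme with reductase activity, were the most abundant, with medians of 198 and 192 FPKM over the 18 GFP-H3 libraries. Mgst3 followed with 113 FPKM, Gstp1 with 86.7, Gstm1 with 68.2 and Gstm2 with 30.9 FPKM. Mgst1 had a median of 14.3 FPKM, Mgst2 of 4.24, Gsta3 of 4.22 and Gstt1 of 0.965 FPKM. Some neighbours in this order were within their spread and others were not. Gsta4 exceeded Gsto1 in 12 of 18 libraries, Gsto1 exceeded Mgst3 in 13, Mgst3 exceeded Gstp1 in 12 and Mgst2 exceeded Gsta3 in 14. The order was steadier for Gstm2 over Mgst1 (15 of 18), for Gstp1 over Gstm1, Mgst1 over Mgst2 and Gsta3 over Gstt1 (16 each), and for Gstm1 over Gstm2 (18 of 18). The spread did not follow the level. The highest value was 81.9-fold the lowest for Gsta3, 38.7-fold for Mgst1 and 11.6-fold for Mgst2. It was 10.7-fold for Gsta4, 9.01-fold for Mgst3, 8.74-fold for Gstt1 and 6.97-fold for Gsto1, and 3.91-fold for Gstm1, 3.14-fold for Gstm2 and 2.78-fold for Gstp1.

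**Figure D1:**
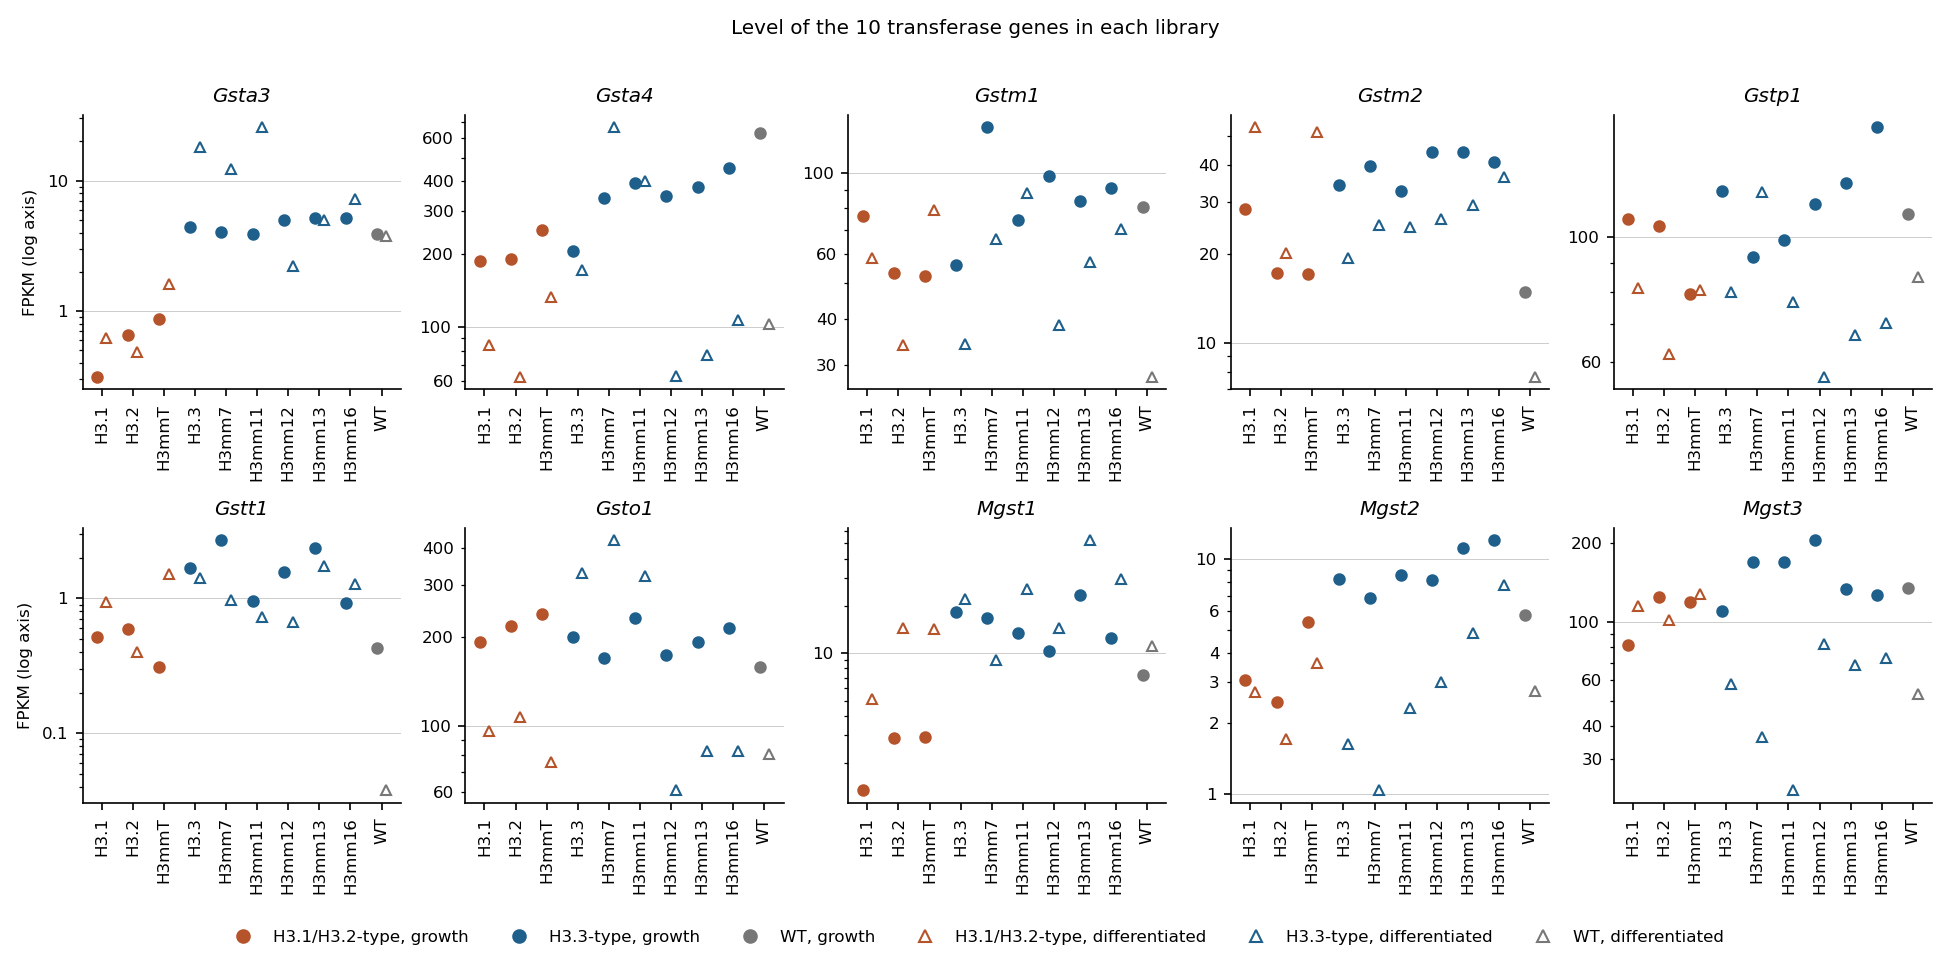
Level of each of the 10 genes in FPKM (log axis, separate scale in each panel) in growth (filled circles) and differentiated cells (open triangles) of the 9 GFP-H3 lines and WT, 1 library per point. The 3 H3.1/H3.2-type lines (brown) sit at 0.313–0.875 FPKM of Gsta3 in growth, below the 6 H3.3-type lines (blue) at 3.86–5.20 FPKM.

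In growing cells, Mgst1 and Gsta3 had the widest gap between the types of line, the values on which the genes were chosen. Mgst1 encodes a microsomal transferase that also reduces lipid peroxides. It measured 1.35 FPKM in the H3.1 line, 2.90 in H3.2 and 2.92 in H3mmT, and in the H3.3-type lines it ran from 10.3 (H3mm12) over a median of 15.1 to 23.4 FPKM (H3mm13). The lowest H3.3-type line thus lay well above the highest H3.1/H3.2-type line, and WT was between them at 7.22 FPKM. The mean difference was 2.30 ± 0.29 on the log2 scale (SE over 6 and 3 lines).

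Gsta3 encodes the alpha-class transferase that protects mice from activated aflatoxin. Its level was 0.313 FPKM in H3.1, 0.659 in H3.2 and 0.875 in H3mmT, and in the H3.3-type lines it ran from 3.86 (H3mm11) over a median of 4.70 to 5.20 FPKM (H3mm13). The H3.3-type lines were close together and far above the others, and WT was within their range at 3.87 FPKM. The difference was 1.80 ± 0.13 on the log2(FPKM + 1) scale, and 2.80 with 0.1 added in place of 1 because the low values are near the constant. With 0.1 added the difference of Mgst1 was 2.70, so which of these 2 genes leads depends on the constant.

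The promoters of the transferases were searched for the core of the antioxidant response element, TGACNNNGC on either strand. RefSeq promoters (GRCm38.p6, 250 bases before to 50 bases after the start) were given for 9 of the 10 genes, without Gsta4. The core was present in 2 of the 9 genes, and in 14.0% of all 27025 genes in that table, and nothing is read from these shares. Both windows are shown 5′ to 3′ on the strand of the core, with the core in capitals.
Gsta3: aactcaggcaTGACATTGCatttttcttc
Mgst1: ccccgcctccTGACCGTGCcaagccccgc
The Gsta3 core began 121 bases upstream of the RefSeq start on the strand of the gene, and the same window occurred once on chromosome 1 of mm9, with the core at chr1:21230545-21230553. The Mgst1 core lay on the opposite strand, with its outer base 56 bases upstream of the start of 1 of the 2 RefSeq promoters, and matched mm9 at chr6:138088992-138089000. This place is inside the Mgst1 gene as annotated in mm9, where other transcripts start further upstream. The matches describe letters in a window and say nothing of NRF2 binding, and the 9 promoters without a match, the other Mgst1 promoter among them, say only that these letters are absent from those windows.

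In growth 3 further genes had H3.3-type and H3.1/H3.2-type lines that did not overlap. Mgst2, which can make leukotriene C4, was at 3.05 FPKM in H3.1, 2.45 in H3.2 and 5.40 in H3mmT, and in the H3.3-type lines it ran from 6.82 (H3mm7) over a median of 8.44 to 12.04 FPKM (H3mm16), a difference of 1.16 ± 0.24 on the log2 scale. The H3mmT line came nearest to the H3.3-type lines. Gstm2, of the mu class, ranged from 17.0 to 28.3 FPKM against 32.6 to 44.3 FPKM, a difference of 0.91 ± 0.19 on the log2 scale. Gstt1, of the theta class, ranged from 0.308 to 0.594 FPKM against 0.921 to 2.69 FPKM, and its difference of 0.83 grew to 1.58 with 0.1 FPKM added. WT was below the lowest H3.3-type line for all 3, with 5.79 FPKM of Mgst2, 14.9 FPKM of Gstm2 and 0.427 FPKM of Gstt1.

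In all, the H3.3-type lines lay above the H3.1/H3.2-type lines without overlap for 5 of the 10 genes in growth, and below them for 0. Over all 10607 genes tested in growth, 5.35% lay above and 4.14% below in this way. Since the genes were chosen on this contrast, nothing is read from the comparison of these shares. The 5 other genes overlapped. Gstm1, a mu-class enzyme, ranged from 56.2 to 133 FPKM in the H3.3-type and from 52.2 to 76.4 FPKM in the H3.1/H3.2-type lines, a log2 difference of 0.53 ± 0.27. Mgst3 ranged from 110 to 205 against 81.7 to 125 FPKM (0.48 ± 0.23, and 0.29 without H3.1), and Gstp1 from 92.1 to 157 against 79.2 to 108 FPKM (0.27 ± 0.19, and 0.13 without H3mmT). Gsto1 was the only gene with a negative difference, -0.14 ± 0.12. Gsta4 differed by 0.72 ± 0.25. Gsta4 overlapped only through the H3.3 line, which at 206 FPKM was below H3mmT at 251 FPKM, while the other 5 H3.3-type lines measured 340 to 452 FPKM. The median difference over the 10 genes was 0.78, against -0.02 over all genes tested, and nothing is read from this for the same reason. Myotube markers moved with the line types in growth as well. Their sum was 62.8 to 179 FPKM in the H3.3-type lines and 5.93 to 31.9 FPKM in the H3.1/H3.2-type lines, with 2 and 3 of 7 markers below 1 FPKM in all lines. The sum of the 5 myoblast markers was 365 to 725 against 266 to 347 FPKM. Their part in the transferase differences was not tested.

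**Figure D2:**
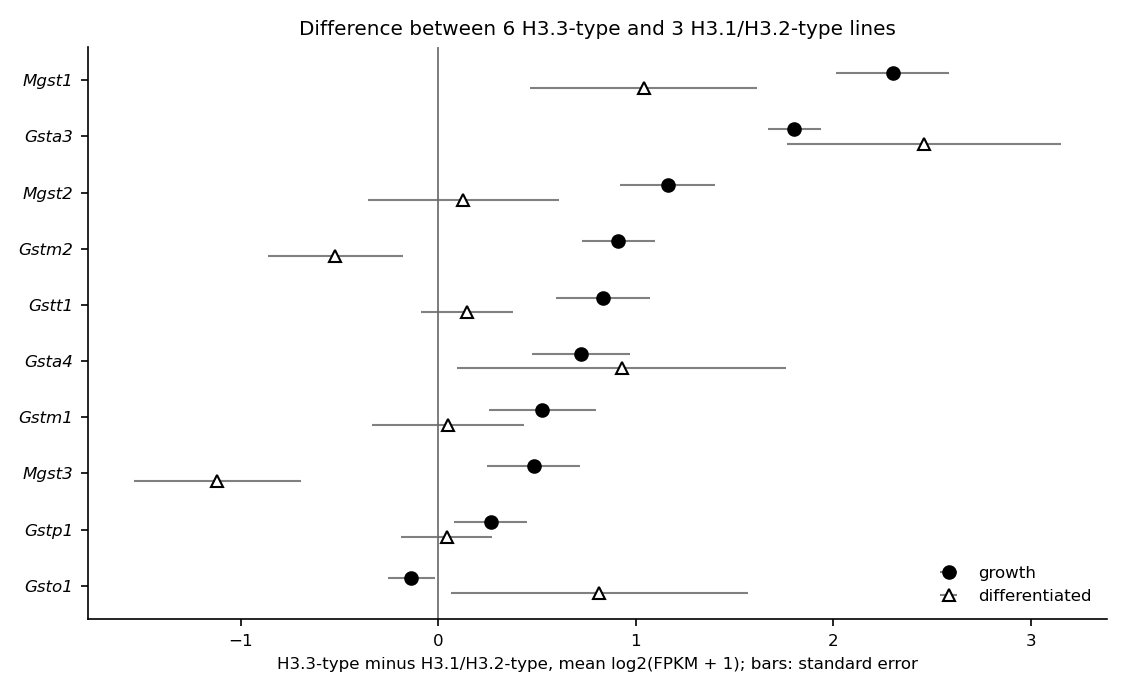
Difference of each gene between the 6 H3.3-type and the 3 H3.1/H3.2-type lines (x axis, mean log2(FPKM + 1) with its standard error over lines) in growth (filled circles) and differentiated cells (open triangles). Mgst1 leads in growth at 2.30, Gsta3 leads in differentiated cells at 2.46, and Mgst3 stands at -1.12 in differentiated cells.

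After differentiation 1 gene lay above without overlap, Gsta3, and 1 below, Mgst3, where 3.19% and 2.86% of the 10878 genes tested did so. Gsta3 measured 0.622 FPKM in H3.1, 0.484 in H3.2 and 1.60 in H3mmT, and in the H3.3-type lines it ran from 2.23 (H3mm12) over a median of 9.80 to 25.6 FPKM (H3mm11). The H3.3-type lines had spread apart, and the difference was 2.46 ± 0.69 on the log2 scale. Mgst3, a microsomal enzyme with glutathione peroxidase activity, measured 115 FPKM in H3.1, 102 in H3.2 and 128 in H3mmT, and in the H3.3-type lines it ran from 22.8 (H3mm11) over a median of 63.4 to 82.8 FPKM (H3mm12). Its difference was -1.12 ± 0.42, opposite in sign to the 0.48 of growing cells. The gaps seen in growth for Mgst2 and Gstt1 were 0.13 and 0.14 after differentiation, with overlapping lines. Mgst1 differed by 1.04 ± 0.57, with 9.03 to 52.2 FPKM in the H3.3-type and 5.11 to 14.4 FPKM in the H3.1/H3.2-type lines, which overlapped. Gstm2 stood at -0.52 ± 0.34, with 19.4 to 36.5 against 20.1 to 53.6 FPKM. Gstm1 and Gstp1 differed by 0.05 and 0.04, and Gsta4 and Gsto1 by 0.93 ± 0.83 and 0.82 ± 0.75. Without H3mm7 the last pair stood at 0.54 each, and without H3.1 Mgst1 stood at 0.60. Gstm2 stood between -0.97 without H3.2 and -0.28 without H3.1. Leaving out 1 line could turn the sign for Gstm1 (as low as -0.28 without H3.2), Gstp1 (-0.09 without H3mm7), Gstt1 (-0.08 without H3.2) and Mgst2 (-0.10 without H3mm16). The median over the 10 genes was 0.14, against 0.01 over all genes tested. Nothing is read from the comparisons with all genes here, since the line types were used to choose the transferases.

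Within the differentiated H3.3-type lines the values were uneven. Gsto1 was at 330 FPKM in the H3.3 line, 424 in H3mm7 and 321 in H3mm11, and at 60.8 to 107 FPKM in the 6 other GFP-H3 lines of both types. Gsta4 was at 172, 666 and 400 FPKM in the same 3 lines and at 62.2 to 133 FPKM in the other 6. Gsta3 was at 18.2, 12.3 and 25.6 FPKM in these lines, and no other line exceeded the 7.25 FPKM of H3mm16. For Mgst3 the order was turned round, with 58.1, 36.3 and 22.8 FPKM in the 3 lines, the lowest of all 9. These lines were picked after their values were seen, so no test was made. The paper places the same lines in a group of their own among differentiated cells, by principal components of these mRNA-Seq data. The summed myotube markers were 4162 to 5694 FPKM in the 3 lines, 3976 in H3.1 and 4280 in H3mmT, and 10118 to 19184 FPKM in H3.2, H3mm12, H3mm13 and H3mm16. Their part in the transferase levels was not tested. In growth the 9 lines had spanned 170 to 239 FPKM of Gsto1.

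The summed level of the 10 genes followed the abundant ones. In growth it was 678 to 767 FPKM in the H3.1/H3.2-type lines and 759 FPKM in the H3.3 line, against 975 to 1113 FPKM in the other 5 H3.3-type lines and 1145 FPKM in WT. In differentiated cells it was 348 to 569 FPKM in 6 of the 9 lines, and 737, 1361 and 988 FPKM in H3.3, H3mm7 and H3mm11. Gsta4 and Gsto1 made up 80.1% of the sum in differentiated H3mm7 cells and 35.6% in H3mm12 cells. The WT libraries gave 1145 and 374 FPKM, their Gsta4 value going from 628 to 102 FPKM.

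**Figure D3:**
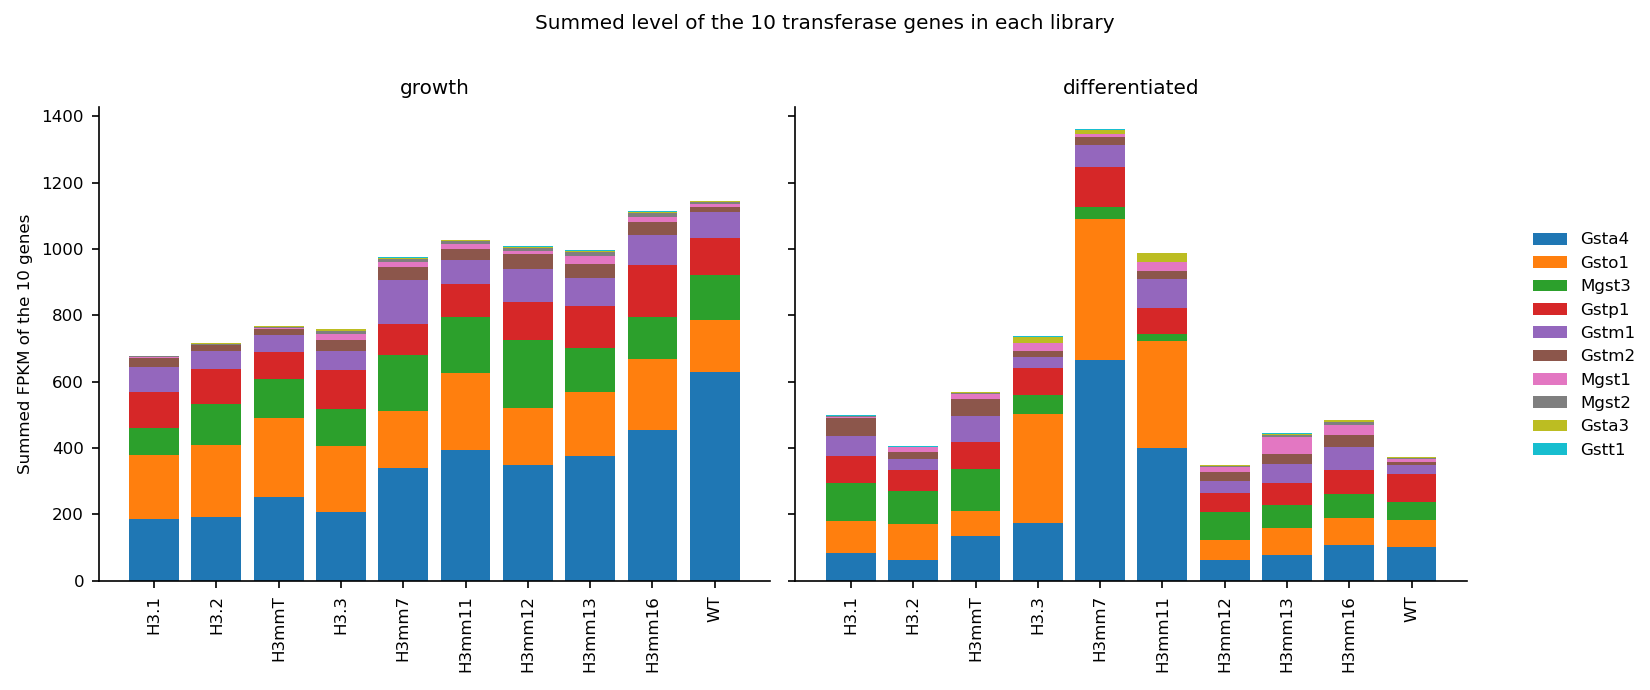
Summed FPKM of the 10 genes in each library (bars from 0, coloured by gene) in growth and differentiated cells of the 9 GFP-H3 lines and WT. In differentiated cells the H3.3, H3mm7 and H3mm11 bars (737, 1361 and 988 FPKM) stand above the other 7, mainly through Gsta4 and Gsto1.

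Differentiation itself was compared over the 9 GFP-H3 lines, first without pairing the libraries of a line. It lowered 4 of the 10 transferase genes at an adjusted p below 0.05 (limma) and raised 0. Over all genes tested, 29.7% passed in the lower and 32.0% in the higher direction. When the change also had to reach 1 in log2 units, the count was 2 lower (Gsta4 and Mgst2) and 0 higher, where 8.57% and 8.8% of all genes were called. Mgst2 lay close to that limit, and the count ran from 0 lower without H3mm12 to 3 lower without H3.1, H3.2 or H3mmT, which added Mgst3. Without H3mm7, Gsta4 was called lower and Mgst1 higher. At an unadjusted p below 0.05 limma also gave 0 higher, and the exact sign-flip permutation test over lines gave 1, Mgst1. With line as a block, which uses the pairing, 5 genes were lower and 1, Mgst1, was higher at an adjusted p below 0.05 (limma). The shares over all genes were taken without the block, so nothing is read from this count. The median change over the 10 genes was -0.49 against 0.04 over all genes.

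Mgst2 fell in 9 of 9 lines. Its level was 7.33 ± 3.28 FPKM in growth and 3.18 ± 2.06 FPKM after differentiation (SD, n = 9 lines), and the change was -1.01 ± 0.28 on the log2 scale (SE, adjusted p = 0.00446 by limma). The smallest fall was in H3.1 (-0.13) and the largest in H3mm7 (-1.94), and WT changed by -0.86. The mean change was -1.35 in the H3.3-type and -0.32 in the H3.1/H3.2-type lines, a contrast that was not tested. The exact two-sided sign-flip permutation test over the 9 lines gave p = 0.0039, the smallest that 9 lines allow.

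Gsta4 went from 305 ± 98.4 to 196 ± 205 FPKM, a change of -1.08 ± 0.39 (adjusted p = 0.0229 by limma). The level dropped in 7 of the 9 lines. The log2 change was -2.44 in H3mm12, -2.28 in H3mm13 and -2.07 in H3mm16, but 0.97 in H3mm7 and 0.02 in H3mm11. The call rested on those lines, since the adjusted p was 0.0693 without H3mm12, 0.0714 without H3mm13 and 0.0674 without H3mm16.

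Mgst3 went from 138 ± 37.4 to 76.3 ± 34.9 FPKM, a change of -0.97 ± 0.27 (adjusted p = 0.0044 by limma), and was lower in 7 of 9 lines. All 6 H3.3-type lines were lower, with log2 changes from -2.85 (H3mm11) to -0.79 (H3mm16), while the changes were 0.49 in H3.1, -0.29 in H3.2 and 0.11 in H3mmT. Gstp1, the pi-class enzyme that also binds and restrains stress kinases, went from 111 ± 22.2 to 77.2 ± 18.4 FPKM, a change of -0.53 ± 0.14 (adjusted p = 0.00233 by limma) with 7 of 9 lines lower. Reads shared with Gstp2 are included in this value to an unknown degree.

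**Figure D4:**
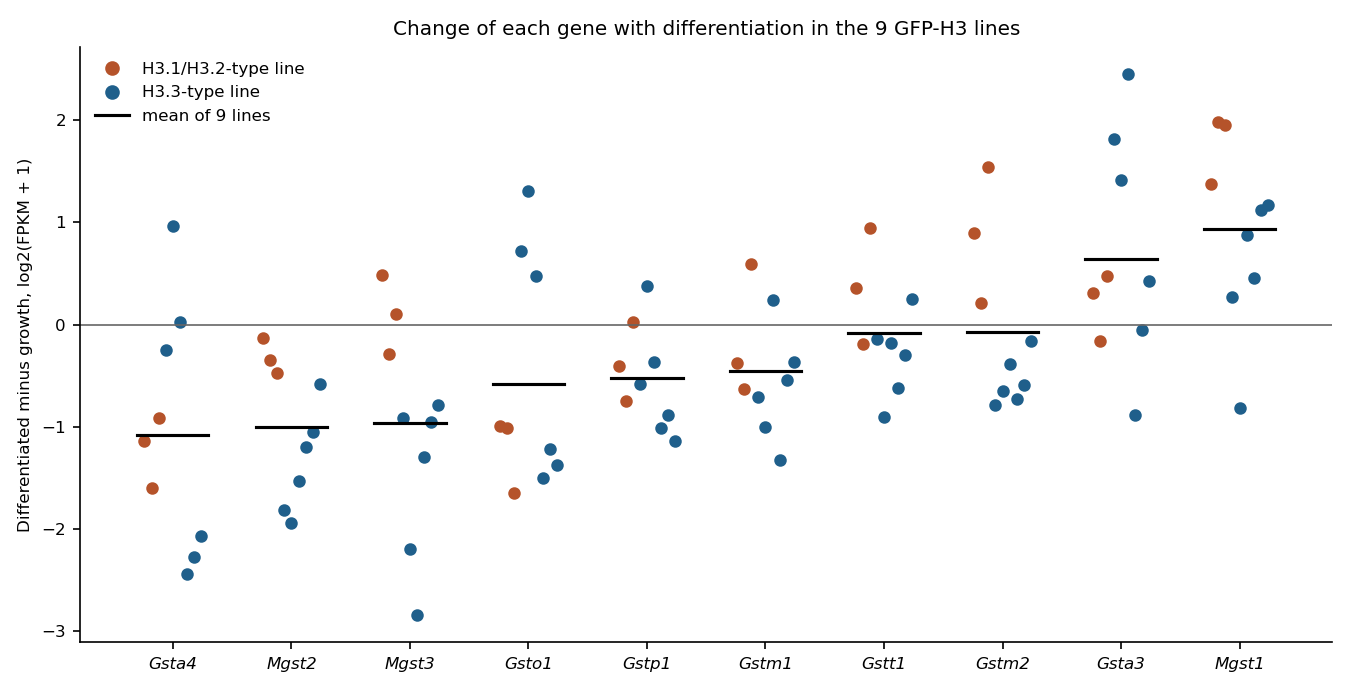
Change of each gene between growth and differentiated cells (y axis, difference in log2(FPKM + 1)) in each of the 9 GFP-H3 lines, with the mean as a black bar. All 9 lines lie below 0 for Mgst2, 8 of 9 lie above 0 for Mgst1, and the H3.3-type (blue) and H3.1/H3.2-type lines (brown) lie on opposite sides of 0 for Gstm2.

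Mgst1 was the member with the largest mean increase. Its value was 11.3 ± 7.67 FPKM in growth and 20.7 ± 14.1 FPKM after differentiation, a change of 0.93 ± 0.46 that missed the threshold (adjusted p = 0.0864 by limma). It was higher in 8 of 9 lines and lower in H3mm7 (-0.82). With each line as a block, which uses the pairing of growth and differentiated cells of a line, the same change passed (adjusted p = 0.0073), as did the exact sign-flip permutation test (p = 0.0195, unadjusted). Gstm1 had a change of -0.46 ± 0.21 at an adjusted p of 0.0664, and of 0.0366 with the block, while its exact sign-flip permutation test gave p = 0.0508. With WT added to the 9 lines, Gstm1 passed as well, at an adjusted p of 0.028 (limma).

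The other 4 genes did not pass. Gsto1 changed by -0.58 ± 0.33 (adjusted p = 0.137 by limma), with H3.3, H3mm7 and H3mm11 at 0.72, 1.31 and 0.48 and the other 6 lines between -1.64 and -0.99. Without H3mm7 its adjusted p was 0.027 and its change -0.82. Gsta3 changed by 0.64 ± 0.54 (adjusted p = 0.313), between -0.89 in H3mm12 and 2.45 in H3mm11. Gstt1 changed by -0.09 ± 0.19 (adjusted p = 0.717), and Gstm2 by -0.07 ± 0.23 (adjusted p = 0.795). For Gstm2 the mean hides lines that went both ways. The change was negative in 6 of 6 H3.3-type lines, from -0.79 to -0.16, and positive in 3 of 3 H3.1/H3.2-type lines, with 0.21 in H3.2, 0.90 in H3.1 and 1.54 in H3mmT. No test of that contrast is given, since the line types chose the genes.

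The genes around the transferases in glutathione chemistry moved both ways with differentiation. Of 54 genes tested in lists of glutathione synthesis and breakdown, glutathione peroxidases and related enzymes, and the NRF2 pathway, 13 were higher and 24 lower at an adjusted p below 0.05, and 7 were higher and 9 lower by at least 1. The shares over all genes were 32.0% and 29.7%, and 8.8% and 8.57% with the size required. The NRF2 list had 15 of 26 lower and 3 higher. Nqo1, a quinone reductase and standard NRF2 target, fell most, from 153 to 19.1 FPKM, by 2.99 ± 0.31 on the log2 scale (adjusted p = 9.45e-08 by limma, 9 of 9 lines). G6pdx, which starts the pentose phosphate path that supplies NADPH, fell by 1.71, and Srxn1, which repairs peroxiredoxins, fell by 1.58. Srxn1 was lower in 8 of 9 lines and rose from 82.0 to 110 FPKM in H3mm7. Gclm, the regulatory subunit of the enzyme that starts glutathione synthesis, fell by 2.02, and Gsr, which returns oxidised glutathione to its reduced form, fell by 1.51. Nfe2l2, the gene for NRF2 itself, was higher by 0.62 ± 0.08 (adjusted p = 2.28e-06) and was named after its value was seen.

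Among the genes that rose, Chac1, which degrades glutathione, went from 14.8 to 98.4 FPKM, a change of 2.49 ± 0.32 (adjusted p = 1.43e-06 by limma, 9 of 9 lines). Cth, which makes cysteine, rose by 2.24, with 8 of 9 lines higher and 1.06 to 71.5 FPKM in differentiated lines. Dpep1, a dipeptidase that acts on glutathione breakdown products, rose by 1.51 (9 of 9 lines). Hagh, a hydrolase of glutathione thioesters, rose by 1.31, and Gpx3, a secreted glutathione peroxidase, rose by 1.24 from 0.111 to 1.96 FPKM. In the synthesis list 6 of 13 genes were higher and 3 lower, and in the peroxidase list 4 of 15 were higher and 6 lower, where 32.0% of all genes were higher and 29.7% lower, and nothing is read from these counts.

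The same lists were compared between the line types. They were chosen with earlier results of this contrast known, so their counts are descriptions and no independent evidence. In growth 5 of 51 genes tested were higher in the H3.3-type lines at an adjusted p below 0.05 (limma), all 5 in the NRF2 list of 26, where 1.19% of all genes were. Nqo1 was the only 1 with a difference of at least 1, a size reached by 0.509% of all genes. It was at 64.5 FPKM in H3.1, 81.2 in H3.2 and 98.7 in H3mmT and at 106 (H3.3) to 262 FPKM (H3mm16) in the H3.3-type lines, a difference of 1.18 ± 0.24 (adjusted p = 0.0356). This call was lost when any line but H3.3 was left out. The 4 other genes, named after their values were seen, were the biliverdin reductase Blvrb (0.87), the carbonyl reductase Cbr1 (0.63), the autophagy receptor Sqstm1 (0.61) and the ferritin heavy chain Fth1 (0.54). After differentiation 0 of 54 list genes passed, 8 of them at an unadjusted p below 0.05, and over all genes 0.00919% passed in either direction (limma).

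For each transferase, the gene outside the family whose log2 level was most like it over the 18 libraries was taken from 8525 genes. The libraries share the large change of state, so these correlations are descriptions. Gsta4 was closest to Srxn1 (Pearson's r = 0.946), and the r of this pair was 0.881 within growth and 0.980 within differentiated lines. Srxn1 measured 26.3, 110 and 58.6 FPKM in differentiated H3.3, H3mm7 and H3mm11 cells and 8.47 to 18.2 FPKM in the other 6 lines. Gsto1 was closest to Sec61b (r = 0.936), a subunit of the channel that takes proteins into the endoplasmic reticulum, with 0.963 in differentiated lines but -0.700 in growth. Sec61b measured 433, 538 and 326 FPKM in the same 3 differentiated lines and 97.8 to 172 FPKM in the other 6. Mgst3 was closest to Acat1, a mitochondrial thiolase (r = 0.911), Mgst2 to Cby1 (0.906), Gsta3 to Atp6v1b2, a subunit of the vacuolar proton pump (0.881), and Gstp1 to Atxn7l1 (0.866). The likeness was weaker for Gstm1 with Ifi30 (0.840), Gstm2 with Plcd1 (0.815), Mgst1 with Gsdmd (0.793) and Gstt1 with Car2 (0.760). The last 2 pairs had r of 0.472 and 0.339 within differentiated lines, and of 0.879 and 0.912 within growth.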

How the data were processed

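mRNA-Seq libraries of 10 C2C12 lines in 2 states were used. Per the labels and the methods, the authors aligned these reads to mm9 using TopHat2 2.0.8, as far as the GFP-H3 lines go, and deposited FPKM estimated by Cuffdiff of Cufflinks 2.0.1. The mapping of WT reads is not given in the sources used here, so WT was left out of the fits and its values stand beside them. Deposited 3′-seq tables list histone genes alone and were not used, and ChIP-seq and amplicon data were not analysed here. Depth is unknown, and FPKM scaling makes each value relative to all other RNA of its library.

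States were compared over 9 lines, and line types as 6 against 3 lines, with limma 3.58.1 (R 4.3.3; trend and robust settings) on log2(FPKM + 1) for genes with a mean of at least 1 FPKM, with Benjamini-Hochberg adjustment over all genes tested. A call needed an adjusted p below 0.05 and an absolute difference of 1 or more. The code was tested on simulated data. The growth and differentiated libraries of a line come from the same cell line, and their deviations from the state means correlated with r of 0.206 to 0.445 in all 9 lines, so line was also used as a block. The transferase genes, gene lists and markers were chosen with earlier results of these data known. Named genes are the 10 transferases and, by level, other transferases and related genes. Also named are up to 5 called list genes with the largest change in each direction. The gene most like each member (mean of at least 5 FPKM) is named too. Where no separate cultures are stated, p-values measure the spread between these lines. Alternatives covered the constant added (0.1 and 0.01 FPKM), normalization, filters, limma settings, the block, WT and leaving out each line. Loci and shared 31-base words come from mm9 with GENCODE annotation, and promoters from RefSeq (GRCm38.p6). The tools were numpy 2.4.6, pandas 2.3.3, Biopython 1.88 and matplotlib 3.10.9 under Python 3.11.15.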

Additional observations from a re-analysis of the deposited data

Results flagged for a closer look

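Gsta4 in growing H3.3-type lines was flagged because the H3.3 line, at 206 FPKM, stood apart from the other 5, at 340 to 452 FPKM. Its gap to the nearest line was 0.638 of the whole range on the log2 scale, above Dixon's 95% value of 0.625 for 6 samples. It was the only flag among 20 groups examined (10 genes in 2 states, H3.3-type lines), and chance flags about 1 in 20.

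Gstm2 was flagged because it was lower after differentiation in every H3.3-type line and higher in every H3.1/H3.2-type line. The mean changes were -0.55 and 0.88 on the log2 scale, a gap of -1.43. This difference was not tested, because the line types were used to choose the genes.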

How the results depend on the processing

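With differentiation, 1899 genes were called in all (1904 with line as a replicate block, 1839 to 1999 with a line left out). The number of transferases past the adjusted p was 4, 5 with WT, 6 with the replicate block, which added Mgst1 and Gstm1 and changed no other call of theirs, and 3 to 6 with a line left out. Shares over all genes past the adjusted p were taken for the main fit alone, so nothing is read from the change in this number. Mgst2, Mgst3 and Gstp1 passed that threshold under every alternative run, but the 2 called with a change of at least 1 (Gsta4, Mgst2) became Gsta4 alone with library medians scaled, Gsta4 and Mgst3 with WT, and 0 to 3 lower with a line left out. Between line types, leaving out 1 line turned the sign for 4 of 10 transferases after differentiation and 0 of 10 in growth. The line types were used to choose the genes, so nothing is read from these counts. Changes near 0 turned sign with a line left out, Gstm2 (from -0.274 without H3mmT to 0.0168 without H3.3, and 0.0095 without H3mm12) and Gstt1 (from -0.215 without H3mmT to 0.0158 without H3mm7). The genes called between line types in growth numbered 60, but 92 and 96 with 0.1 and 0.01 FPKM added, 31 with a mean of at least 5 FPKM, 26 with no filter and 31 to 61 with a line left out. After differentiation 1 gene was called, and 0 to 4 with a line left out. Of the lists, 1 gene was called between types in growth, 0 with no filter and 0 to 1 with a line left out. The cause of these shifts was not tested. The transferases without overlap between line types numbered 5 to 7 in growth and 2 to 3 after differentiation with a line left out. Levels near 1 FPKM (Gstt1, and Gsta3 in H3.1/H3.2-type lines) depend most on the constant added, and without read numbers their counting error is unknown.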

Other observations

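The list of transferases and related genes used here holds 19 further genes, of which 7 had a mean of at least 1 FPKM over the GFP-H3 libraries. Gstm5 was the most abundant of them, with a mean of 30.8 FPKM, followed by Gstz1, which also works in tyrosine breakdown, at 21.1 and Gstcd at 10.3 FPKM. With differentiation Gstz1 rose by 1.02 ± 0.08 on the log2 scale (adjusted p = 2.43e-09 by limma) and Gstcd fell by 1.46 ± 0.11 (adjusted p = 1.05e-09). Gsta1 and Gsta2, of the alpha class, fell by 1.16 and 1.18 from low levels, and Gstm5 rose by 0.42, all at an adjusted p below 0.05. Alox5ap and Gsto2, with means of 3.91 and 3.02 FPKM, did not pass. The other 12 genes had means below 1 FPKM, and Gstt4 was listed at 0 in every library.

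The 10 transferase genes did not move as 1 block. Over their 45 pairs, Pearson's r of the log2 levels had a median of 0.251 over the 18 libraries, 0.515 over the 9 growing lines and 0.115 over the 9 differentiated lines, and it ran from -0.563 to 0.818 over the 18. The points share libraries and the change of state, so these values are descriptions. The genes were also chosen on a difference between line types, which bears on r between lines. Nothing is therefore read from the medians of growing against differentiated lines. The SD between lines on the log2 scale was larger after differentiation than in growth for 7 of the 10 genes. The share over all genes was not computed, so nothing is read from this count. Gsto1 differed most, with 0.17 in growth and 1.07 after differentiation, while Gstm2 was nearly level at 0.518 and 0.521. Mgst1, Gstt1 and Mgst2 were the 3 exceptions, Mgst2 narrowly at 0.663 and 0.641.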
